A study of Mus musculus with 9 samples.

Results

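Expression of 10 genes for viral restriction factors, host proteins that block steps of virus replication inside the cell, was measured in mouse embryonic fibroblasts. The genes are Mx1, Mx2, Rsad2, Cmpk2, Bst2, Zc3hav1, Ifitm1, Ifitm3, Isg20 and Apobec3, chosen by symbol from 22180 genes with a signal on the arrays. Each of the 10 had a single probe set that names it alone.

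Most restriction factor genes are interferon-stimulated genes. DNA in the cytosol is detected by cGAS, whose product activates STING, and STING leads to transcription of interferon beta. Lipopolysaccharide (LPS), a component of bacterial outer membranes, is detected by Toll-like receptor 4, which signals through the adaptor MyD88 and, by a separate route that also yields interferon, through the adaptor TRIF. Secreted interferon then binds its receptor and activates transcription factors, STAT2 and IRF9 among them, that bind the interferon-stimulated response element in the promoters of such genes.

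Fibroblasts came from WT mice (STING+/+), from SKO mice (STING-/-) and from MyD88KO mice (MyD88-/-). Cells of each genotype were left as mock, given LPS or transfected with dsDNA, that is double-stranded DNA, which the labels call ISD, the stimuli lasting 6 h. Each of the 9 combinations was measured on 1 Affymetrix MoGene 2.0 array, so a difference between 2 arrays has no replicate check. The sources used here give neither the mouse strain, the passage or the number of embryos per culture, nor whether mock cells received transfection reagent. The protocol writes MyD99KO where the titles write MyD88KO. Signals are on the log2 scale, so 1 unit is a 2-fold difference, and those of different genes are not compared because each probe set has its own brightness.

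Array medians lay between 4.42 and 4.46. Sting1 had signals of 8.54 to 9.32 on the WT and MyD88KO arrays and of 3.78 to 4.60 on the SKO arrays. Myd88 had signals of 6.99 to 8.21 on the MyD88KO arrays and of 7.52 to 8.95 on the WT arrays, and the probes may lie outside the deleted part, so this gene does not check the label. Of 14 fibroblast markers 13 to 14 reached 4.44, the median over all values, on each array, as did 10 to 11 of 12 leukocyte and macrophage markers, and Col1a1, a collagen gene, had signals of 11.68 to 12.18. The summed log2 signal of 12 measured leukocyte and macrophage markers was 63.6 to 64.8 in WT, 67.8 to 70.2 in SKO and 66.7 to 67.4 in MyD88KO, with Ptprc, the leukocyte antigen CD45, between 4.37 and 5.45. In bulk RNA of this kind, fewer cells of a type and less RNA per cell cannot be told apart.

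The promoters of the restriction factor genes were searched for the response element because these genes moved together. RefSeq promoter windows (GRCm38.p6, 250 bases before to 50 after a start site) were held for 8 of the 10 genes, all but Mx1 and Mx2. The core of the element, GAAA followed by any 2 bases and a second GAAA, searched on both strands with overlapping matches allowed, was present in at least 1 window of 4 of these 8 genes, against 3.99% of 27025 genes with a window. The 4 stretches with a match are shown because they hold the letters of the element that these factors bind. Matches are in capitals, written 5′ to 3′ on the strand of the gene, with the start site as position 1:
Rsad2, chr12:26456528-26456607, minus strand: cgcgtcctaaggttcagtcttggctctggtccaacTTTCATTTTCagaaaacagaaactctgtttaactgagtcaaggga
Bst2, chr8:71537555-71537634, minus strand: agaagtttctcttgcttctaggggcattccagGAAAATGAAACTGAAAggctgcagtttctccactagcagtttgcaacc
Ifitm3, chr7:141010715-141010744, minus strand: agGAAAAGGAAActtctgaGAAACCGAAAc
Apobec3, chr15:79892258-79892287, plus strand: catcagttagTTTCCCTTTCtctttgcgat

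The Rsad2 match began at position -120 and read toward the other strand. Bst2 held 2 overlapping matches that began at -130 and -124. In Ifitm3 both matches lay just after the start site, at positions 3 and 20, inside the transcribed region. The Apobec3 match began at -140 in the first of 2 windows, read toward the other strand and lay inside the annotated span of the gene. No match was present in the windows of Cmpk2, Zc3hav1, Isg20 or Ifitm1, which says only that these letters are not in those windows. Among other antiviral effector genes 13 of 24 with a window held a match, and among relatives of the members 2 of 18. For interferon genes this was 9 of 17, for genes of the interferon receptor and its signalling 2 of 10. For genes that sense DNA or LPS it was 1 of 7. These counts are descriptions without a test.

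The enzymes that act on nucleotides had the largest responses. Rsad2 encodes viperin, which converts CTP into a chain-terminating analogue, and Cmpk2, its direct neighbour on chromosome 12, encodes a mitochondrial kinase of pyrimidine nucleotides. Cmpk2 had log2 signals of 3.98 with mock, 11.43 with dsDNA and 7.33 with LPS in WT. In SKO these were 4.02, 5.55 and 8.30, and in MyD88KO 3.80, 11.50 and 7.51. The dsDNA arrays of WT and MyD88KO stood at least 3.13 above all 7 others. The difference from mock of 7.45 in WT and 7.70 in MyD88KO was the highest of the genes compared in each genotype, although the mock signals lay under 4.44 and make its exact size uncertain.

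Rsad2 signals were 4.97, 11.27 and 7.54 with mock, dsDNA and LPS in WT, 4.61, 6.22 and 8.49 in SKO, and 5.53, 11.39 and 7.46 in MyD88KO. As for Cmpk2, the dsDNA arrays of the STING-sufficient genotypes (WT and MyD88KO) were on top, the SKO LPS array came next and the 3 mock arrays were at the bottom.

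Mx1 and Mx2 encode dynamin-like GTPases that trap viral nucleoproteins. In the C57BL/6J reference annotation both are listed as transcribed pseudogenes, and inbred mouse strains are known to carry defective copies, so their transcripts need not yield working protein. Mx2 went from 2.58 with mock to 8.20 with dsDNA and 4.06 with LPS in WT, from 3.41 to 4.03 and 5.28 in SKO, and from 2.82 to 8.67 and 4.12 in MyD88KO. Mx1 signals were 3.02, 5.59 and 3.80 in WT, 2.90, 3.31 and 3.69 in SKO, and 2.88, 7.45 and 3.89 in MyD88KO. For Mx1 the signal was at or above 4.44 on the dsDNA arrays of WT and MyD88KO and on no other, and for Mx2 on these and the SKO LPS array. Differences between low signals understate a change in transcript, which touches the Mx genes, and the mock signals of Cmpk2 also lay under 4.44.

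A further group acts on viral nucleic acid. Zc3hav1 encodes ZAP, a zinc finger protein that binds CpG-rich RNA, Isg20 a 3′ to 5′ exonuclease, and Apobec3 a cytidine deaminase that mutates retroviral DNA. Zc3hav1 signals were 6.51, 9.46 and 7.70 with mock, dsDNA and LPS in WT, 6.99, 7.36 and 8.28 in SKO, and 8.14, 10.39 and 8.61 in MyD88KO. Isg20 had 6.06, 8.52 and 6.87 in WT, 6.16, 6.43 and 7.03 in SKO, and 6.09, 8.01 and 6.99 in MyD88KO. The 3 mock signals of Isg20 lay between 6.06 and 6.16, whereas those of Zc3hav1 were highest in MyD88KO. Apobec3 had 6.29, 7.44 and 6.68 in WT, 6.58, 6.65 and 6.84 in SKO, and 5.70, 8.46 and 6.52 in MyD88KO, with its lowest and its highest signal in the same genotype.

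The last group sits in membranes. Bst2 encodes tetherin, which holds budding virions at the cell surface, and Ifitm1 and Ifitm3 encode transmembrane proteins that hinder fusion of entering viruses. Bst2 signals were 7.94, 10.33 and 9.21 with mock, dsDNA and LPS in WT, 8.75, 9.07 and 9.81 in SKO, and 9.0, 10.89 and 9.55 in MyD88KO. Ifitm3 was bright on every array, at 10.46, 11.42 and 10.94 in WT, 11.03, 11.16 and 11.37 in SKO, and 10.84, 11.74 and 11.06 in MyD88KO. The SKO LPS array came within 0.055 of the WT dsDNA array for Ifitm3, the narrowest gap of the group. Ifitm1 stayed between 2.76 and 3.26 on all 9 arrays, below 4.44 throughout, and was left out of the tests by the filter on dim genes.

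**Figure D1:**
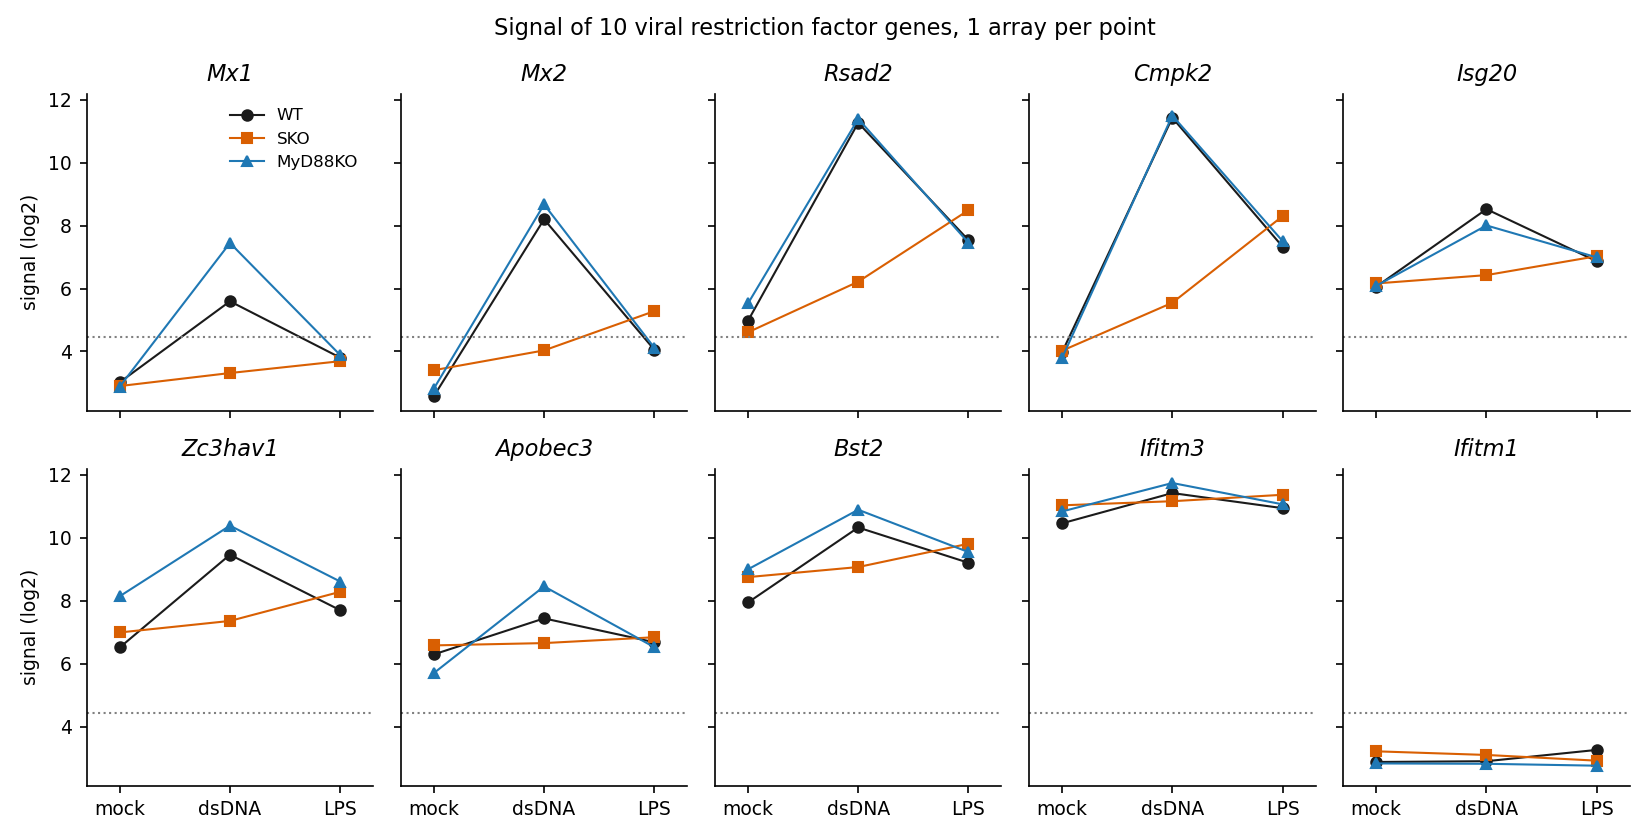
Log2 signal (y axis) of each of the 10 genes with mock, dsDNA or LPS (x axis), 1 point per array, lines joining the arrays of a genotype and a dotted line at 4.44, the median of all values. For 9 of the 10 genes the WT and MyD88KO dsDNA arrays are the 2 highest, and Ifitm1 stays under the dotted line.

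For 9 of the 10 genes the dsDNA arrays of WT and MyD88KO were above the 7 others, a pattern shown by 7.06% of the 14737 tested genes. Differences from mock of at least 2-fold with dsDNA, counted where the brighter array was at or above 4.44, were found for 8 of 10 members in WT (1.94% of all genes compared) and 8 in MyD88KO (3.31%). Mx1, Mx2 and Cmpk2 had mock signals under 4.44 and entered these counts through the dsDNA array alone, so they add no evidence to them. In the counts of this kind below, the same holds for Cmpk2 throughout and for Mx2 with LPS in SKO. The median difference over the 10 was 2.52 in WT and 2.50 in MyD88KO, against 0.00 and -0.03 for all genes compared. The exceptions were Ifitm3, at 0.96 and 0.90, and Ifitm1, at 0.025 and -0.01. Next to Cmpk2, the differences ranged from 1.14 for Apobec3 to 6.29 for Rsad2 in WT and from 1.89 for Bst2 to 5.87 for Rsad2 in MyD88KO.

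The dsDNA effect that the STING-sufficient genotypes share was tested in limma, a linear model with pooled error over all genes, with Benjamini-Hochberg adjustment over 14737 genes. Its spread is the disagreement between genotypes that share an effect, on 2 residual degrees of freedom. At an adjusted p under 0.05, 5.27% of all genes tested were called up and 2.29% down, and 9 members were called up, all but the untested Ifitm1. The filter on dim genes admitted Mx1 through these dsDNA arrays alone, so its call is no evidence and 8 members remain without it. Cmpk2 rose by 7.69 ± 0.19 (SE; limma adjusted p = 7.5e-06; higher in 2 of 2 genotypes), Mx2 by 5.78 ± 0.14 (limma adjusted p = 7.5e-06) and Rsad2 by 6.27 ± 0.30 (limma adjusted p = 8.99e-05).

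The errors of the other called members varied. Ifitm3 rose by 0.91 ± 0.05 (limma adjusted p = 0.000164), Bst2 by 2.13 ± 0.11 (0.000122), Isg20 by 2.22 ± 0.14 (0.000277) and Zc3hav1 by 2.63 ± 0.16 (0.000264). Mx1, at 3.50 ± 0.41 (limma adjusted p = 0.00424), and Apobec3, at 1.88 ± 0.33 (0.0208), had the widest errors of the group. These were the members whose difference from mock was most unlike between WT and MyD88KO, at 2.57 and 4.56 for Mx1 and 1.14 and 2.75 for Apobec3. The next largest difference between these genotypes was that of Zc3hav1, whose response was lower in MyD88KO (-0.70). Whether these responses differ between WT and MyD88KO was not tested, and the fit counts such differences as error. Without the WT LPS, the SKO mock or the SKO LPS array, neither Mx1 (adjusted p in limma 0.0717 to 0.0722) nor Apobec3 (0.132 to 0.133) passed, and Apobec3 also failed without the intensity trend (0.0621) and with robust eBayes (0.0909).

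**Figure D2:**
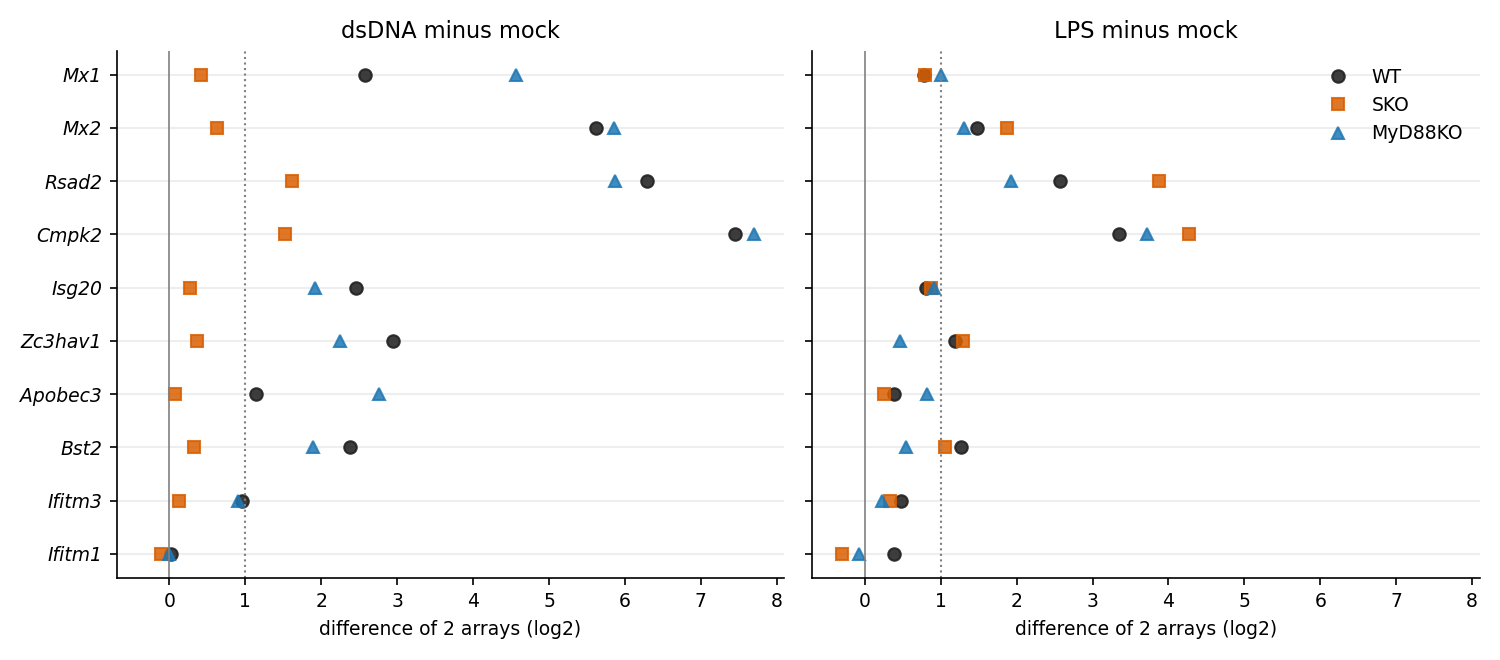
Difference of each gene's log2 signal from the mock array of the same genotype (x axis) with dsDNA (left) and LPS (right), 1 point per genotype, with a dotted line at the 2-fold difference of 1. With dsDNA the SKO points lie between -0.12 and 1.61 while those of WT reach 7.45, and with LPS the 3 genotypes lie closer together.

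Without STING the response to dsDNA was small. In SKO the dsDNA difference from mock was 1.61 for Rsad2 and 1.52 for Cmpk2, the 2 members past 2-fold (0.143% of all genes compared), and these ranked 6 and 8 among 13965 genes. The other members had 0.63 for Mx2, 0.41 for Mx1, 0.37 for Zc3hav1, 0.32 for Bst2, 0.27 for Isg20, 0.13 for Ifitm3, 0.07 for Apobec3 and -0.12 for Ifitm1. Of the 10, 9 were above mock, with a median difference of 0.34 against 0.0007 for all genes compared. The fitted dsDNA effect in SKO, which has a single dsDNA array behind it, was called by limma for 0 members and 0% of genes. Unadjusted limma p-values under 0.05 were found for 4 of the 9 tested members and 508 of the 14737 tested genes, and robust eBayes likewise called 0 genes. The missed threshold does not show that these genes failed to respond.

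The difference between the dsDNA response of the STING-sufficient genotypes and that of SKO was called up for 7 members (1.25% of all genes tested up, 0.0407% down). It was 6.40 ± 0.31 for Cmpk2 (SE; limma adjusted p = 0.000479), the largest of all genes, 5.24 ± 0.22 for Mx2 (0.000285) and 5.04 ± 0.48 for Rsad2 (0.00575). Zc3hav1 differed by 2.34 ± 0.25 and Isg20 by 2.0 ± 0.22 (limma adjusted p = 0.00983 for each), Bst2 by 1.79 ± 0.17 (0.00682) and Ifitm3 by 0.75 ± 0.08 (0.00932). Mx1, at 2.96 ± 0.65 (limma adjusted p = 0.125), and Apobec3, at 1.66 ± 0.53 (0.309), did not pass. The dsDNA difference of Mx1 from mock was 0.41 in SKO, 2.57 in WT and 4.56 in MyD88KO. For Apobec3 these were 0.07, 1.14 and 2.75. Without the WT LPS, the SKO mock or the SKO LPS array 3 members passed in place of 7, and without the WT dsDNA array Mx1 (adjusted p in limma 0.0187) and Apobec3 (0.0191) passed, as Mx1 did without the MyD88KO mock array (0.0492). Rsad2 missed the threshold without the WT dsDNA, MyD88KO mock or MyD88KO dsDNA array (adjusted p in limma 0.0675 to 0.0686) and with robust eBayes (0.0639). Without the intensity trend Ifitm3 (0.124) and Zc3hav1 (0.0547) missed it, and Ifitm3 also without any 1 of 6 arrays, namely the 3 named for Rsad2 and the WT LPS, SKO mock and SKO LPS arrays (adjusted p in limma 0.0725 to 0.279).

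**Figure D3:**
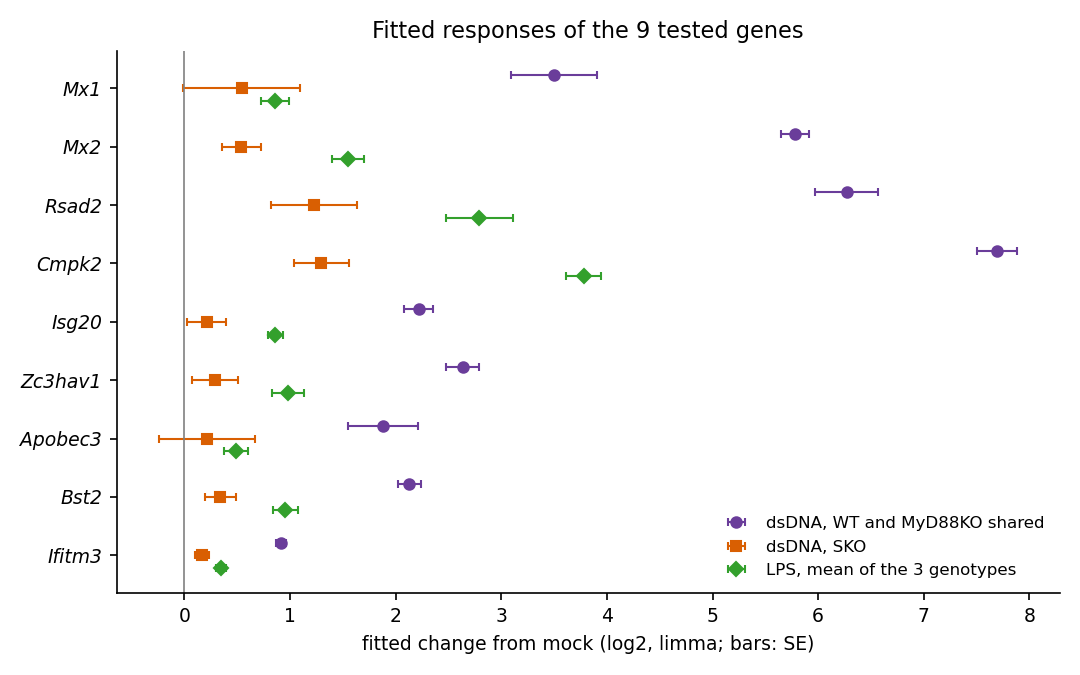
Fitted change from mock (x axis, log2, limma; bars are SE) of the 9 tested genes for dsDNA shared by WT and MyD88KO, dsDNA in SKO and LPS averaged over the 3 genotypes. The shared dsDNA effect is the largest of the 3 for each gene, from 0.91 for Ifitm3 to 7.69 for Cmpk2.

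In WT and MyD88KO the LPS signal lay between those with mock and dsDNA for each member but Ifitm1, which stayed under 4.44. The share of all genes with this order was not counted. In WT the LPS difference from mock was 3.35 for Cmpk2, 2.56 for Rsad2, 1.26 for Bst2 and 1.18 for Zc3hav1, the 4 members past 2-fold with a brighter array at or above 4.44 (0.864% of all genes compared). Mx2 had 1.48 there but stayed under 4.44 on both arrays. By the same rule 5 members passed in SKO (0.536%), with 4.27 for Cmpk2, 3.88 for Rsad2, 1.88 for Mx2, 1.29 for Zc3hav1 and 1.06 for Bst2. In MyD88KO these were 2 members (0.595%), Cmpk2 at 3.71 and Rsad2 at 1.93, while Mx2, at 1.3, and Mx1, at 1.0, had both arrays under 4.44. In all 3 genotypes LPS was above mock for 9 of the 10, all but Ifitm1, against 13.7% of tested genes. Among these 9, Mx1 had all its mock and LPS signals under 4.44.

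A model of the 6 mock and LPS arrays took each genotype's mock and LPS arrays as a pair and averaged the difference over the genotypes. It called 6 members up (0.522% of all genes tested). Among these was Mx2, which reached 4.44, the median of all values, on the SKO LPS array alone (5.28). Its other signals in this fit may not be told from background, so the size of its rise is uncertain. Cmpk2 rose by 3.78 ± 0.16 (SE; limma adjusted p = 0.00036; higher in 3 of 3 genotypes), Rsad2 by 2.79 ± 0.31 (0.0139), Mx2 by 1.55 ± 0.15 (0.00685), Bst2 by 0.96 ± 0.12 (0.0245), Isg20 by 0.86 ± 0.07 (0.00348) and Ifitm3 by 0.35 ± 0.05 (0.0498). Zc3hav1 had 0.98 ± 0.15 (limma adjusted p = 0.0588), Mx1 0.86 ± 0.14 (0.0705) and Apobec3 0.49 ± 0.12 (0.3). Mx1 passed the filter only through dsDNA arrays outside this fit. Its mock and LPS signals, 2.88 to 3.89, all lay under 4.44 and may not be told from background. The count was 1 without the SKO mock or SKO LPS array and 0 without the MyD88KO mock or MyD88KO LPS array, fits that have 1 residual degree of freedom.

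Among the mock and LPS arrays of WT and SKO, Mx2 likewise reached 4.44 with LPS in SKO alone, so its LPS effect is uncertain in size. Fitted in the model of all arrays, the LPS effect shared by WT and SKO was called up for 5 members (0.326% of all genes tested up, 0.00679% down), namely Cmpk2, Rsad2, Mx2, Bst2 and Ifitm3. That of MyD88KO was called up for Cmpk2 alone (3.71 ± 0.26, limma adjusted p = 0.0158; 0.0746% of all genes tested), and this call was lost without the WT dsDNA, MyD88KO mock or MyD88KO dsDNA array. Leaving out any of these 3 arrays also took the shared count from 5 to 0, and leaving out the WT LPS, SKO mock or SKO LPS array took it to 1. The difference between these LPS effects was called for 0 members and 0% of genes in limma, and robust eBayes called 0 genes too. Unadjusted, 1 of the 9 tested members and 765 of the 14737 tested genes had a limma p under 0.05. For Rsad2 the LPS difference of SKO minus that of WT was 1.32 and that of MyD88KO minus that of WT -0.63, and for Cmpk2 these were 0.92 and 0.36.

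The order of the stimuli turned without STING. In WT and MyD88KO the excess of dsDNA over LPS reached 4.15 and 4.55 for Mx2. In SKO LPS was above dsDNA for 9 of the 10, against 40.1% of tested genes, with Mx1 under 4.44 on both arrays. There dsDNA minus LPS was -2.75 for Cmpk2, -2.27 for Rsad2 and -1.25 for Mx2, and it ran from -0.93 for Zc3hav1 to -0.19 for Apobec3 in the others of these 9. Over WT and MyD88KO, limma called dsDNA above LPS for 8 members (2.96% of all genes tested above, 1.28% below), among them Mx1, which entered the tests through these dsDNA arrays. The difference was 4.35 ± 0.14 for Mx2 (SE; limma adjusted p = 0.000252), 4.04 ± 0.11 for Cmpk2 (0.000134) and 3.83 ± 0.15 for Rsad2 (0.000562). It was 1.23 ± 0.16 for Bst2 (limma adjusted p = 0.0182) and 0.58 ± 0.07 for Ifitm3 (0.0134), while Apobec3 had 1.34 ± 0.36 (0.118). Without the WT LPS or MyD88KO LPS array 3 members passed, and 5 without the WT mock, MyD88KO mock or MyD88KO dsDNA array.

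**Figure D4:**
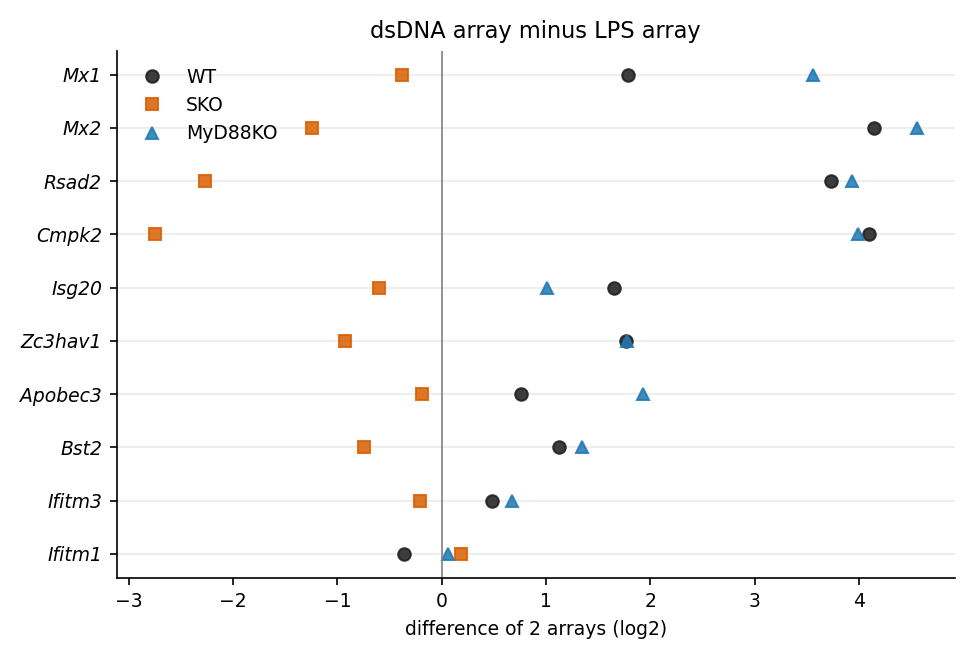
Log2 signal of the dsDNA array minus that of the LPS array (x axis) for each of the 10 genes, 1 point per genotype. Points of WT and MyD88KO reach 4.15 and 4.55 to the right of 0, and the SKO points of 9 genes lie to the left, down to -2.75 for Cmpk2.

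Some members already differed between genotypes with mock. In the fit of all arrays Bst2 was higher at the mock level in SKO than in WT by 0.65 ± 0.11 (SE; limma adjusted p = 0.0478), and Ifitm3 by 0.50 ± 0.05 (0.0102). The third member called in SKO was Mx2, whose mock signals all lay under 4.44, so no difference is given for it. In MyD88KO Zc3hav1 was higher than in WT by 1.31 ± 0.16 (limma adjusted p = 0.0023), Bst2 by 0.80 ± 0.11 (0.00366) and Ifitm3 by 0.33 ± 0.05 (0.00531). These fitted values also draw on treated arrays. Between the mock arrays themselves, SKO minus WT was 0.81 for Bst2 and 0.57 for Ifitm3. MyD88KO minus WT was 1.63 for Zc3hav1, 1.05 for Bst2 and 0.38 for Ifitm3. Over all genes tested 0.848% were called higher and 0.706% lower in SKO, and 7.82% higher and 10.2% lower in MyD88KO. The summed leukocyte and macrophage markers of the mock arrays were 64.8 in WT, 70.2 in SKO and 67.4 in MyD88KO, those of the fibroblast markers 130.4, 130.8 and 143.5, and their part in these differences was not tested. The 3 calls in SKO fell to 0 without the WT dsDNA, WT LPS, SKO mock, SKO LPS, MyD88KO mock or MyD88KO dsDNA array.

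Genes upstream of the restriction factors were read from fixed lists. The shares of all genes tested that were called up were 5.27% for the shared dsDNA effect and 0.522% for LPS over the 3 genotypes. Of 16 interferon genes measured 2 were called up for the shared dsDNA effect among 9 tested, one of them Ifnb1, the interferon beta gene, with a fitted difference of 2.48 ± 0.17 (SE; limma adjusted p = 0.00049). Ifnb1 reached 4.44 on the dsDNA arrays of WT and MyD88KO alone. It entered the test through them, so its call is no evidence, and its mock signals are too low for an exact difference. With LPS its difference from mock was -0.01 in WT, 0.21 in SKO and -1.13 in MyD88KO, on signals of at most 3.49 with mock and LPS, under 4.44 throughout, so a response to LPS was not detectable on these arrays. Of 11 genes of the interferon receptor and its signalling 6 were called up with dsDNA. Stat2 rose by 4.36 ± 0.16, Irf9 by 2.69 ± 0.13 and Irf7, a factor that amplifies interferon transcription, by 4.26 ± 0.18 (SE; limma adjusted p = 3.67e-05, 8.8e-05 and 5.47e-05). Usp18, which dampens signalling at the interferon receptor, had the highest mean difference of WT and MyD88KO in this list, with a fitted rise of 6.63 ± 0.19 (SE; limma adjusted p = 1.42e-05), and Irf3, which STING activates without new transcription, had differences of -0.23 in WT and 0.04 in MyD88KO. With LPS 4 of the 11 genes were called up over the 3 genotypes, and the LPS difference of Stat2 was 2.05 in WT, 2.76 in SKO and 2.17 in MyD88KO.

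Of 11 genes that sense DNA or LPS 3 were called up with dsDNA (5.27% of all genes tested). By the mean of WT and MyD88KO, Cgas, the DNA sensor, had the highest difference of this list, at 0.98 in WT and 1.75 in MyD88KO, and Tlr4 the lowest, at -0.27 and -0.37. In WT alone Myd88 was higher, at 1.43. Of 25 other antiviral effector genes 22 were called up with dsDNA and 14 with LPS over the 3 genotypes (0.522% of all genes tested). For the difference from SKO 18 of these genes were called up (1.25%). Their median difference from mock with dsDNA was 2.13 in WT, 0.22 in SKO and 2.82 in MyD88KO, beside 2.52, 0.34 and 2.50 for the 10 restriction factors. By the same mean Ifit1, whose product binds foreign RNA, had the highest difference, with a fitted rise of 7.53 ± 0.42 (SE; limma adjusted p = 0.000191), and Shfl, whose product blocks ribosomal frameshifting, the lowest, at 0.03 in WT and 0.52 in MyD88KO.

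Paralogs and domain relatives of the members mostly stayed near mock. Of 17 measured, 15 were tested and 3 were called up with dsDNA (5.27% of all genes tested). The median difference of the 17 was 0.03 in WT and 0.06 in MyD88KO. Parp12, a poly(ADP-ribose) polymerase with zinc fingers like those of ZAP, rose by 3.25 ± 0.10 (SE; limma adjusted p = 1.63e-05), and Zc3hav1l had the lowest mean of WT and MyD88KO, at -0.21 in WT and -0.97 in MyD88KO. Apobec1, a relative of Apobec3, had dsDNA differences of 2.14 in WT, 0.98 in SKO and 2.21 in MyD88KO. For Tiparp these were 1.37, 0.14 and 1.42.

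**Figure D5:**
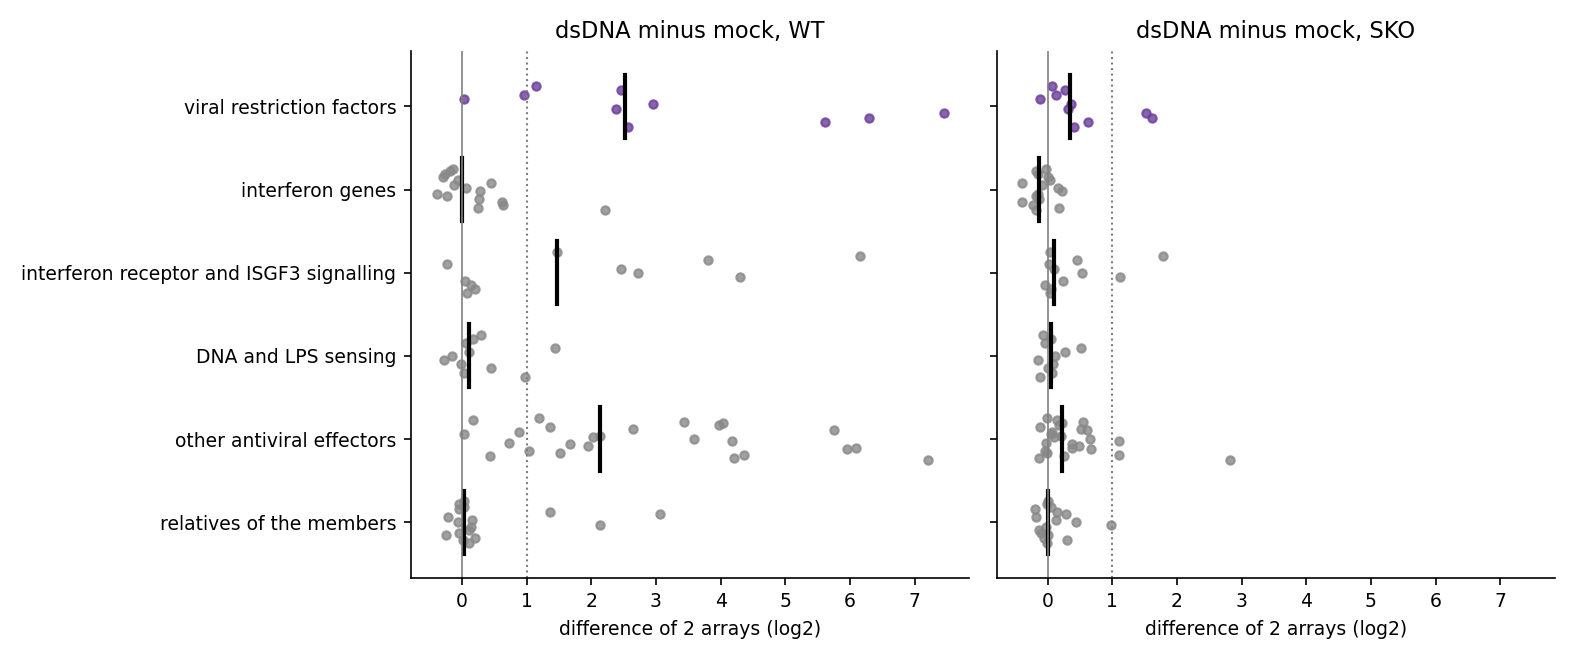
Log2 difference of the dsDNA array from the mock array (x axis) in WT (left) and SKO (right) for every measured gene of 6 lists (y axis), with a black bar at the list median and a dotted line at the 2-fold difference of 1. In WT the restriction factors have a median of 2.52 and the other antiviral effectors one of 2.13, while in SKO these are 0.34 and 0.22.

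Genes whose profile over the 9 arrays was most like the mean profile of the 10 members were sought among 2136 genes that varied by at least 2-fold. The highest Pearson correlations over 9 arrays, which share the treatments, were 0.996 for Iigp1, 0.995 for Gbp3, 0.994 for Parp14, 0.994 for Oas1b, 0.993 for Uba7 and 0.992 for Parp9. Each of these 6 genes differed from mock with dsDNA by at least 2.75 in WT and by at most 1.05 in SKO, and with LPS by at least 1.03 in every genotype. The genes were picked by their profile on these same arrays, so such differences follow from the choice and are no further evidence.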

How the data were processed

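Per the submitters' processing notes, the authors made the deposited log2 signals with Affymetrix Expression Console 1.3.1.187; the sources used here do not give its background correction, normalisation or summarisation settings. Per the labels' protocols, 300 ng of total RNA per sample was labelled. The platform table names 1 gene for 23521 of 41345 probe sets, and a gene took its probe set with the highest mean (22180 genes). Dim genes, under the median of all values (4.44) on all 9 arrays, were left out, which left 14737. Fits used limma 3.58.1 in R 4.3.3 (lmFit, eBayes with intensity trend, Benjamini-Hochberg). The response model held genotype, dsDNA effects of STING-sufficient cells and SKO, and LPS effects of MyD88-sufficient cells and MyD88KO; fits of 6 arrays served LPS over all genotypes and dsDNA against LPS. The labels do not say whether arrays came from separate cultures, so the spread behind each p-value is that of these 9 arrays and may be technical; their number limits precision. Scripts were tested on simulated data. Members and lists were chosen with earlier results of these data known. Named genes are the members, the targeted genes, Ifnb1, Stat2, Irf9, Irf7, Col1a1, Ptprc, the extremes of each list by mean dsDNA change and the 6 most like profiles. Apobec1 and Tiparp were added after the values were seen. List genes without a probe set of their own were not analysed here. Alternatives changed the filter, trend, eBayes, normalisation, probe set rule, sharing of the LPS effect and each array in turn.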

Additional observations from a re-analysis of the deposited data

Results flagged for a closer look

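The dsDNA response of 7 members differed between the STING-sufficient genotypes and SKO by a test of the difference itself in limma. Of all genes tested 1.25% were called up and 0.0407% down by it. The log2 differences were 6.40 for Cmpk2, 5.24 for Mx2, 5.04 for Rsad2, 2.34 for Zc3hav1, 2.0 for Isg20, 1.79 for Bst2 and 0.75 for Ifitm3. Each rests on 1 dsDNA array of SKO. The calls of Rsad2, Zc3hav1, Isg20, Bst2 and Ifitm3 were each lost under some alternatives, those of Cmpk2 and Mx2 under none.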

How the results depend on the processing

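Replicate numbers are 1 in every group and so pair no arrays. Arrays were paired by genotype alone, a term in each fit that sets each treated array beside its own mock array. The count of members called for the shared dsDNA effect was 7 to 9 under every alternative run. Counts that involve dsDNA include Mx1 where it passed. The filter on dim genes admitted Mx1 through the WT and MyD88KO dsDNA arrays alone, so it adds no evidence to them. Leaving out 1 array in turn, members called numbered 3 to 7 for the dsDNA response minus that of SKO, 0 to 5 for LPS shared by WT and SKO, 0 to 1 for LPS in MyD88KO, 0 to 5 for LPS over the 3 genotypes, 3 to 8 for dsDNA minus LPS and 0 to 3 for SKO minus WT at the mock level. Such fits have fewer residual degrees of freedom where the array belongs to a shared effect. Without the intensity trend these counts were 2 for LPS shared by WT and SKO, 0 for LPS in MyD88KO, 5 for dsDNA minus LPS and 0 for SKO minus WT at the mock level; the cause was not tested. Over all genes the shared dsDNA effect was called for 1114, and for 270 to 1111 without 1 array, 638 without the trend and 1336 with 1 LPS effect for the 3 genotypes. Of 90 fitted member effects 12 changed sign under some alternative, none of them called in either fit. Differences of 2 arrays kept their counts at 2-fold or more within 1.5 times under a floor at 4.44, repeated quantile normalisation and the mean of probe sets; with the floor the LPS difference of Mx2 in SKO fell below 2-fold, to 0.84. Signals under 4.44, which include all of Ifitm1 and the mock signals of Mx1, Mx2 and Cmpk2, may not be told from background.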

Other observations

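Some neighbours and relatives of the members, chosen after the members' values were seen, had these differences from mock. Zc3hav1l, next to Zc3hav1, had dsDNA differences of -0.21 in WT and -0.97 in MyD88KO. Aen, next to Isg20, had 0.14 and 0.20. Fam3b, which follows Mx1 and lies between Mx1 and Mx2, had -0.08 and -0.21, with signals of at most 3.41. In the Ifitm cluster Ifitm2, next to Ifitm1, had 0.10 and 0.15 on signals of 8.25 to 8.56, and Ifitm6, next to Ifitm3, had 0.20 and -0.05 on a signal under 4.44, while Ifitm3 between them had 0.96 and 0.90. Rsad2 and Cmpk2 are the only members that are direct neighbours, and each had one of the 3 largest dsDNA differences of the group in WT and in MyD88KO. Cmpk1, the cytosolic relative of Cmpk2, had -0.05 and 0.16.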
